A study of Mus musculus with 2 samples.

Results

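The data described here are the transcript counts of osteopontin and of the surface proteins that bind it in CD11b+ cells of mouse gingiva, the gum tissue around the teeth. The 5 genes are Spp1, Cd44, Itgav, Itgb3 and Itgb5, of 32285 genes listed in the files. They were selected with earlier results of these data known, in particular a higher Spp1 level in the neutrophils of 1 library, so every difference below is a description and none is a test. Mice received bone marrow by transplantation (BMT), named 10% Tet2-/- BMT in the first group and 10% Tet2+/+ BMT in the second, and 12 weeks later all of them had 5 days of ligature-induced periodontitis, in which a thread tied around a tooth provokes gum inflammation. The Tet2 protein acts on methylated cytosine in DNA, and mutations of the gene are frequent in clonal haematopoiesis. Per the extraction protocol the sort gate was CD45.2+CD11b+ in the first group and CD45+CD11b+ in the second, although the title of the second sample also names CD45.2. Each group is 1 library, and the labels used here give neither the number of animals pooled nor the genotype and sex of the recipients. The genotype, the gate and the animals therefore cannot be told apart in any difference between the libraries.

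Osteopontin is a secreted, phosphorylated glycoprotein of bone matrix, macrophages and other cells. An arginine-glycine-aspartate (RGD) motif in it binds integrins, among them alpha v beta 3 (encoded by Itgav and Itgb3) and alpha v beta 5 (Itgav and Itgb5), and CD44, the main receptor for hyaluronan, also binds it. In bone, osteoclasts attach to the matrix through alpha v beta 3. In inflamed tissue, osteopontin acts as a chemoattractant and survival factor for leukocytes.

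The 5 genes are placed on GRCm38 by the GENCODE M21 annotation, which matched all 5 identifiers. Spp1 (ENSMUSG00000029304) lies at chr5:104435118-104441050 on the plus strand. Cd44 (ENSMUSG00000005087) lies at chr2:102811141-102901665 on the minus strand and Itgav (ENSMUSG00000027087) at chr2:83724397-83806916 on the plus strand. Itgb3 (ENSMUSG00000020689) lies at chr11:104608000-104670476 and Itgb5 (ENSMUSG00000022817) at chr16:33829665-33949338, both on the plus strand. The gene model Gm42793 overlaps Spp1 on the same strand, and 1 model overlaps Cd44 and 2 overlap Itgav on the opposite strand. UMIs (unique molecular identifiers, each standing for 1 captured transcript) are counted per gene, so the splice forms of Cd44 or Spp1 are not separated. The stretch of Spp1 shown here links the ligand to its integrins. It is a piece of exon 7 of the 8 exons of transcript Spp1-202, at chr5:104439421-104439546, read 5′ to 3′ on the plus strand. The capitals mark the codons of the RGD motif, which is the only in-frame RGD of that transcript. The whole stretch shown is found in 4 of 7 annotated coding transcripts, and the others were not searched for the motif alone.

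Spp1 RGD-coding stretch: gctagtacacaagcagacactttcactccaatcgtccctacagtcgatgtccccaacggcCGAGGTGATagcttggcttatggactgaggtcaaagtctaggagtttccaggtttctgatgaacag

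Kept cells had at least 500 UMIs, at least 250 genes and at most 10% mitochondrial UMIs. They numbered 9596 in 10% Tet2-/- BMT and 11672 in 10% Tet2+/+ BMT, with 85289763 and 87908757 UMIs and a median of 5920 and 5009 UMIs per cell, and 31 of their barcodes occurred in both libraries. Cells with Xist but no Y-linked UMI numbered 4320 in 10% Tet2-/- BMT and 3 in 10% Tet2+/+ BMT, and those with a Y-linked UMI but no Xist 553 and 6885, so the libraries also differ in the sex of the cells. The 27 clusters were made without the 5 genes. Classes carry names such as neutrophil-like from their marker genes, and 6 clusters stayed unnamed. Levels are CPM, a gene's UMIs as counts per 1e6 UMIs of the class and library. Intervals in parentheses are exact 95% intervals and cover counting error only. They do not cover the spread between cells, which was much wider for Spp1, or between animals, for which there is no replicate.

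Over all kept cells, Spp1 was the gene of the 5 that differed between the libraries. It was at 232 CPM (19746 UMIs) in 10% Tet2-/- BMT and 72.3 CPM (6356 UMIs) in 10% Tet2+/+ BMT, 3.20-fold higher (3.11 to 3.29). Cd44 was at 599 against 522 CPM, Itgav at 33.5 against 29.6, Itgb5 at 41.4 against 32.2 and Itgb3 at 8.47 against 8.77. None of these 4 reached the 1.5-fold used here to call a difference, which is taken on levels with 10 CPM added to each. Free RNA, measured in barcodes with 51 to 200 UMIs, held Spp1 at 354 CPM (338 to 371) in 10% Tet2-/- BMT and 74.6 CPM (68.6 to 80.9) in 10% Tet2+/+ BMT. The free RNA therefore differed between the libraries in the same direction as the cells.

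Spp1 transcripts sat in very few cells in both libraries. In 10% Tet2-/- BMT 21 cells held 50% of all Spp1 UMIs of kept cells, and in 10% Tet2+/+ BMT 23 cells did. The 10 richest cells held 34.5% and 39.1% of them, and the richest single cell held 1809 and 565 UMIs. Cells with at least 1 Spp1 UMI were 15.3% (14.6 to 16.1) and 8.27% (7.77 to 8.78) of all cells, but cells with 5 or more UMIs were 330 and 167 and held 91.6% and 82.5% of the UMIs. Cd44 stood at the other end, since 1670 and 2090 cells were needed to hold 50% of its UMIs. Itgav (323 and 384 cells), Itgb3 (228 and 244) and Itgb5 (235 and 232) lay between. A class level of Spp1 is accordingly set by a small number of cells, and its counting interval is narrower than the chance of drawing those cells.

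**Figure D1:**
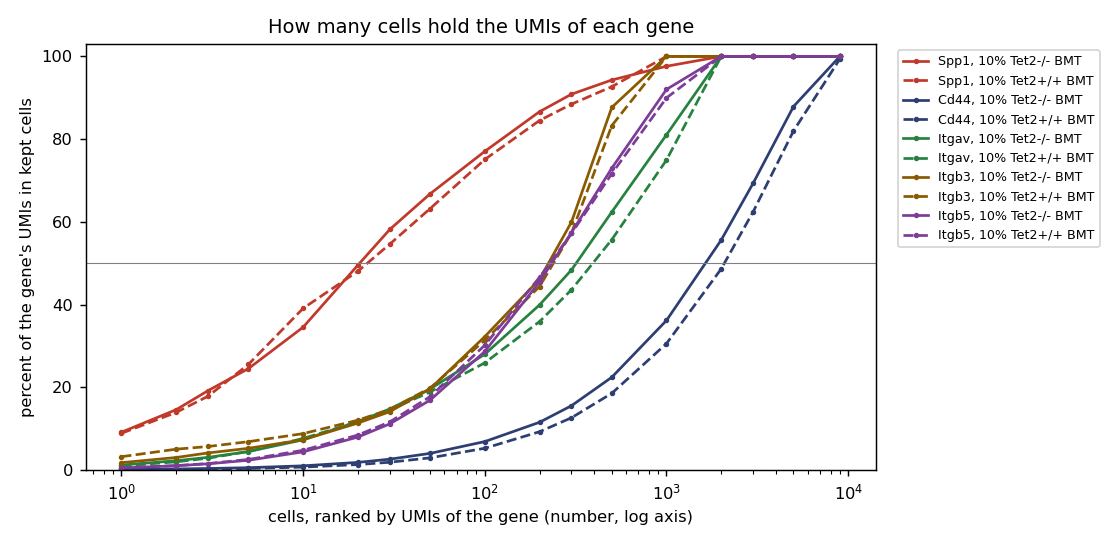
The y axis gives the percent of a gene's UMIs in kept cells that are held by the cells with the most of them, and the x axis the number of such cells on a log scale. Solid lines are 10% Tet2-/- BMT and dashed lines 10% Tet2+/+ BMT. The Spp1 lines cross 50% at 21 and 23 cells, and the Cd44 lines at 1670 and 2090.

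The cluster with the highest Spp1 level was unnamed and led by Arg1, the arginase of alternatively activated macrophages. It numbered 312 cells (3.25% of kept cells) in 10% Tet2-/- BMT and 78 cells (0.668%) in 10% Tet2+/+ BMT. Spp1 in it was at 3029 CPM (2973 to 3087) and 2328 CPM (2234 to 2426), 1.30-fold higher (1.24 to 1.36) in 10% Tet2-/- BMT. This cluster carried 55.0% of all Spp1 UMIs of kept cells in 10% Tet2-/- BMT (10862 UMIs) and 36.1% in 10% Tet2+/+ BMT (2294 UMIs). Of the cells that held 50% of the UMIs, 17 of 21 and 11 of 23 were in it. Of all cells with 5 or more Spp1 UMIs, 95 of 330 and 22 of 167 were in it. Within it, 170 of the 312 and 46 of the 78 cells had no Spp1 UMI.

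Finer clustering, at resolution 2, gave 1 cluster that carried the Spp1 and 1 that did not. The first, led by Arg1, Spp1, Inhba (a subunit of activin) and Timp1 (an inhibitor of matrix metalloproteinases), numbered 267 cells (2.78%) in 10% Tet2-/- BMT and 48 (0.411%) in 10% Tet2+/+ BMT. Its Spp1 level was 3831 CPM (3759 to 3904) in 10% Tet2-/- BMT and 4213 CPM (4043 to 4390) in 10% Tet2+/+ BMT, a ratio of 0.909 (0.869 to 0.952). A UMI of Spp1 was found in 52.4% and 60.4% of its cells, at median depths of 9972 and 10054 UMIs. In the B cell-like cluster led by Cd79a, taken as cells that should lack Spp1, that share was 3.88% and 3.62%, at 4599.5 and 4557 UMIs. In this narrow population, then, the share of kept cells was larger in 10% Tet2-/- BMT while the summed Spp1 level was not. That level rests on few cells. In 10% Tet2-/- BMT 1 cell held 1809 of its 10860 Spp1 UMIs, and in 10% Tet2+/+ BMT 1 cell held 565 of 2291. A ratio without these cells was not computed, so the order of the 2 levels is not secure. The second, led by Ccl22, Fscn1 and Ccr7, genes of migrating dendritic cells, held 49 and 36 cells with 2 and 3 Spp1 UMIs in all.

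Markers of several cell types were also found in the Arg1, Spp1 and Inhba cells. Haemoglobin was at 19351 and 18755 CPM, against 2148 and 473 CPM in free RNA, but the median cell of that piece had 0 haemoglobin UMIs in both libraries and 5 cells held 53.9% and 99.9% of these UMIs. C1qa, a macrophage marker, was at 186 and 644 CPM, Fn1, a monocyte marker, at 1245 and 2225 CPM, and the neutrophil gene S100a8 at 5667 and 6227 CPM. Monocyte-like cells themselves had Fn1 at 1259 and 954 CPM. Within the cluster led by Arg1, Fn1 was at 1993 and 2609 CPM in cells with 5 or more Spp1 UMIs and at 446 and 573 CPM in cells with none. The cells with none include most of the 45 and 30 cells of this cluster that fell in the piece led by Ccl22. The Fn1 contrast is therefore not within 1 population. Whether these transcripts were the cells' own or came from other cells was not tested. The part of transcripts from other cells in the Spp1 level was not tested either.

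**Figure D2:**
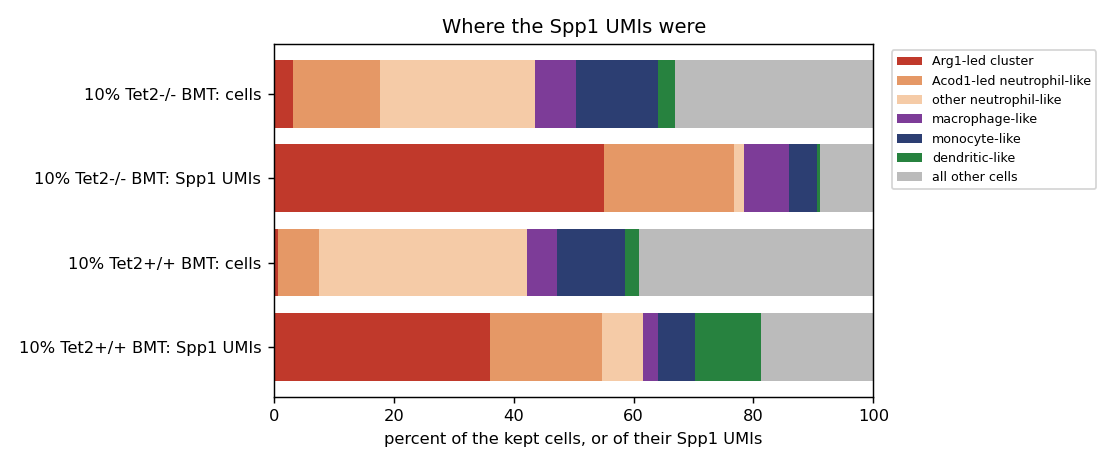
Stacked bars give, for each library, the percent of kept cells and the percent of their Spp1 UMIs that fell in the cluster led by Arg1, in neutrophil-like cells of the cluster led by Acod1, in other neutrophil-like cells, and in the other classes. The cluster led by Arg1 is 3.25% and 0.668% of cells but 55.0% and 36.1% of the Spp1 UMIs.

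In neutrophil-like cells, short-lived phagocytes marked here by genes such as S100a8, Retnlg and Csf3r, Spp1 was at 273 CPM (265 to 281) in 10% Tet2-/- BMT and 76.8 CPM (73.1 to 80.6) in 10% Tet2+/+ BMT, 3.55-fold higher (3.36 to 3.76). The counts were 4636 UMIs in 3872 cells and 1619 UMIs in 4851 cells. This is the difference for which Spp1 was selected, and of 2231 genes eligible in the class 2.73% were called higher and 2.69% lower. No cell of the class decided the value, since without its richest cell in each library (317 and 76 UMIs) the level was 254 and 73.2 CPM. The class levels lay below and at the free RNA levels of 354 and 74.6 CPM, while the B cell-like cluster led by Cd79a, in the same libraries and at similar depth, held Spp1 at 6.74 and 7.39 CPM. Haemoglobin, which neutrophils do not make, was at 1367 and 635 CPM in the class and at 2148 and 473 CPM in free RNA. Free RNA subtracted in the amount that this haemoglobin would give took Spp1 below 0 in 10% Tet2+/+ BMT, so that subtraction gave no ratio. With free RNA subtracted at 5% of the UMIs the log2 ratio was 1.68 against 1.71. That amount takes only 17.7 and 3.73 CPM from the class levels, so the ratio could move little. It cannot show what a larger share of free RNA would do. The part of free RNA in the class difference was not tested in other ways.

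Within the class, most Spp1 was in 1 cluster. The cluster led by Acod1, Cxcl2 and Cxcl3 (an itaconate-producing enzyme of activated phagocytes and neutrophil-attracting chemokines) held Spp1 at 752 CPM (730 to 775) in 10% Tet2-/- BMT and 362 CPM (342 to 384) in 10% Tet2+/+ BMT, 2.07-fold higher (1.94 to 2.21). It also made up 33.5% of the UMIs of the class in the first library and 15.5% in the second. The neutrophil-like cells outside it were at 31.3 and 24.2 CPM (353 and 431 UMIs), 1.29-fold higher (1.12 to 1.49). Among them, the small cluster led by Ccl8 (86 and 121 cells) was at 104 and 85.1 CPM, a ratio of 1.22 (0.823 to 1.82). With the levels of each cluster held at the mean of both libraries, the mix of clusters alone gave a ratio of 1.86, and with the mix held, the levels alone gave 1.95.

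In the cluster led by Acod1 the share of cells with a Spp1 UMI did not differ beyond counting error. It was 16.5% (14.6 to 18.6) and 15.2% (12.7 to 17.8), at median depths of 3676 and 3766 UMIs, and 8.20% and 7.39% after cells were thinned to 500 UMIs. Cells with 5 or more Spp1 UMIs numbered 102 of 1378 and 54 of 798, and they held 4108 and 1083 UMIs. The positive cells of 10% Tet2-/- BMT held more UMIs, up to 317 in 1 cell against 76. These cells had neutrophil transcripts, with S100a8 at 50885 and 52764 CPM, and little of the genes that mark the other Spp1-rich cells, with Arg1 at 24.5 and 0 CPM and C1qa at 24.5 and 68.3 CPM. Of them, 2.94% and 1.85% had a doublet score in the top 8% of their library.

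Sex-typed cells of the class gave a second view. In 10% Tet2-/- BMT the 770 neutrophil-like cells with Xist were at 289 CPM (273 to 307), the 171 with Y-linked transcripts at 772 CPM (717 to 831) and the 2917 with neither at 231 CPM (222 to 239). In 10% Tet2+/+ BMT the 2579 Y-linked cells were at 74.0 CPM (69.2 to 79.0) and the 2270 with neither at 80.6 CPM (74.8 to 86.7). These 3 sets of the first library lay above both of the second, while 14 cells of the first with both kinds of transcript held 4 UMIs, at 34.3 CPM. The level of 772 CPM came from 725 UMIs, in a class whose richest cells held 317, 281 and 274. How many cells set the level of each set was not computed.

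Immature neutrophil-like cells, marked by granule genes such as Ltf, Camp and Elane, had little Spp1, at 30.01 CPM (27.4 to 32.8) and 15.9 CPM (14.0 to 18.1). An unnamed cluster led by Siglecf, a gene of eosinophils and of some tissue neutrophils, was at 99.0 CPM (86.1 to 113) and 38.8 CPM (34.4 to 43.5), and 3 of its 435 cells in 10% Tet2-/- BMT held 167 of the 210 UMIs.

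**Figure D3:**
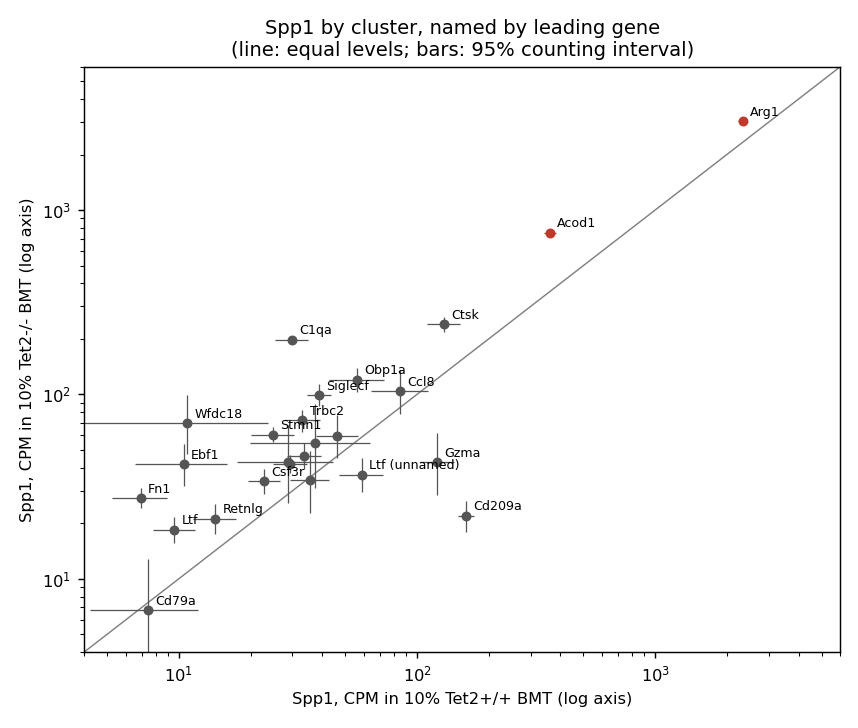
Each point is a cluster named by its leading gene, with its Spp1 level in CPM in 10% Tet2+/+ BMT on the x axis and in 10% Tet2-/- BMT on the y axis, both on log scales, with 95% counting intervals. The grey line marks equal levels, red marks the clusters led by Arg1 and Acod1, 6 crowded points carry no name, and 2 clusters with 0 UMIs in 1 library are left out. The Arg1 point (3029 against 2328 CPM) lies near the line and the Acod1 point (752 against 362) above it.

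In monocyte-like cells, the circulating precursors of macrophages, Spp1 was at 44.3 CPM (41.5 to 47.2; 917 UMIs in 1300 cells) in 10% Tet2-/- BMT and 21.2 CPM (19.1 to 23.4; 1329 cells) in 10% Tet2+/+ BMT, 2.09-fold higher (1.86 to 2.36). Of 2995 eligible genes 2% were called higher and 1.54% lower in this class. The mix of clusters alone gave a ratio of 1.006. The cluster led by Fn1 and Vcan was at 27.4 against 6.92 CPM, and the cycling cluster led by Stmn1 and Top2a at 60.6 against 24.8 CPM. The other clusters of the class did not pass 1.5-fold. That led by Ace was at 46.4 against 33.6 CPM, a ratio of 1.38 (1.09 to 1.75). That led by Retnla was at 59.6 against 46.3 CPM, a ratio of 1.29 (0.908 to 1.81). The class levels were low beside the free RNA of the libraries. If 5% of the UMIs of a cell were free RNA, that alone would give 17.7 CPM in 10% Tet2-/- BMT and 3.73 CPM in 10% Tet2+/+ BMT, and with that amount subtracted the log2 ratio went from 0.80 to 0.42, below the 1.5-fold. With free RNA subtracted in the amount given by haemoglobin, which was low in this class at 33.9 and 17.2 CPM, it was 0.77 and stayed above it. It was 0.34 with cells thinned to 500 UMIs. In cells typed as Y-linked in both libraries the direction turned, at 7.14 CPM (3 UMIs in 27 cells) against 23.2 CPM. The Spp1 of the cluster led by Cd79a was 1.90% and 9.92% of the free RNA level.

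In macrophage-like cells, resident phagocytes marked by C1qa and Apoe and the best known source of osteopontin among leukocytes, Spp1 was at 193 CPM (183 to 203) in 10% Tet2-/- BMT and 30.3 CPM (25.8 to 35.3) in 10% Tet2+/+ BMT, 6.36-fold higher (5.40 to 7.52). Of 2690 eligible genes 0.706% were called higher and 0.632% lower. A single cell set this value. It held 1074 of the 1463 UMIs in 659 cells of 10% Tet2-/- BMT, while the richest of the 586 cells in 10% Tet2+/+ BMT held 28 of 163. Without the richest cell of each library the levels were 51.4 and 25.2 CPM, 2.04-fold higher, and with the 5 genes kept among those clustered on, the log2 ratio was 0.38 rather than 2.33. It was also below 1.5-fold with cells thinned to 500 UMIs (0.46) and in cells typed as Y-linked in both libraries (0.52). A Spp1 UMI was seen in 19.1% (16.2 to 22.3) and 10.6% (8.21 to 13.4) of the cells, at median depths of 10888 and 8248 UMIs.

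Dendritic-like cells, marked by Cd209a and Clec10a, went the other way. Spp1 was at 21.9 CPM (17.9 to 26.5; 105 UMIs in 277 cells) in 10% Tet2-/- BMT and 161 CPM (149 to 173; 694 UMIs in 261 cells) in 10% Tet2+/+ BMT, 7.33-fold lower (5.96 to 9.09) in 10% Tet2-/- BMT. Here too few cells set the level, since 2 cells of 10% Tet2+/+ BMT held 321 and 240 of the 694 UMIs. With the richest cell of each library left out the levels were 20.2 and 86.8 CPM. The second of these still counts the cell with 240 UMIs. A level without both cells, which held 80.8% of the UMIs of 10% Tet2+/+ BMT, was not computed. The 8 cells of that library with 5 or more Spp1 UMIs had Cd209a at 32.8 CPM and C1qa at 463 CPM, against 699 and 130 CPM in the 222 cells with none.

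Natural killer and innate lymphoid (NK/ILC)-like cells were at 42.8 CPM (29 UMIs in 73 cells) and 122 CPM (151 UMIs in 155 cells), 2.85-fold lower (1.91 to 4.4) in 10% Tet2-/- BMT, with 74.8% of the UMIs of 10% Tet2+/+ BMT in 2 cells. T cell-like cells were at 72.3 and 33.0 CPM, with 77.1% of the UMIs of 10% Tet2+/+ BMT in 2 cells. Their cells with 5 or more Spp1 UMIs (11 and 2 cells) held 177 of 211 and 101 of 131 UMIs. Doublet scores in the top 8% were found in 36.4% and 100% of those cells, and in 11.9% and 20.2% of T cell-like cells without Spp1. The part of doublets in this difference was not tested. B cell-like cells were at 24.9 and 8.92 CPM. The B cell-like difference lay in the cluster led by Ebf1, at 41.7 and 10.5 CPM (60 of the 69 and 22 of the 38 UMIs). Doublet scores in the top 8% were common in that cluster also without Spp1, in 55.8% and 72.9% of its cells with no Spp1 UMI, and their part in the difference was not tested. The cluster led by Cd79a had a ratio of 0.912 (0.355 to 2.19). Epithelial-like cells (38 and 52) had 31 and 6 UMIs. Mast and basophil-like cells (10 and 37) had 0 and 2.

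Osteoclast-like cells, the bone-resorbing cells in which osteopontin and alpha v beta 3 are best known, were rare, at 39 cells (0.406%) and 26 cells (0.223%). They held Spp1 at 240 CPM (218 to 264; 428 UMIs) and 130 CPM (111 to 151; 166 UMIs), 1.85-fold higher (1.54 to 2.23) in 10% Tet2-/- BMT, with a UMI in 74.4% and 76.9% of the cells at median depths of 44954 and 46678 UMIs. In 10% Tet2-/- BMT the order of the named classes was neutrophil-like, osteoclast-like and macrophage-like cells, each apart from the next beyond counting error, followed by T cell-like and epithelial-like cells, which did not differ beyond it. The place of macrophage-like cells rests on 1 cell, since without the richest cell of each class they were at 51.4 CPM and T cell-like cells at 61.2. In 10% Tet2+/+ BMT dendritic-like cells came first, with an interval that overlaps that of osteoclast-like cells, followed by NK/ILC-like and neutrophil-like cells. Without the richest cell of each class both orders turned, with dendritic-like cells at 86.8 and osteoclast-like cells at 92.7 CPM, and NK/ILC-like cells at 70.2 and neutrophil-like cells at 73.2.

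**Figure D4:**
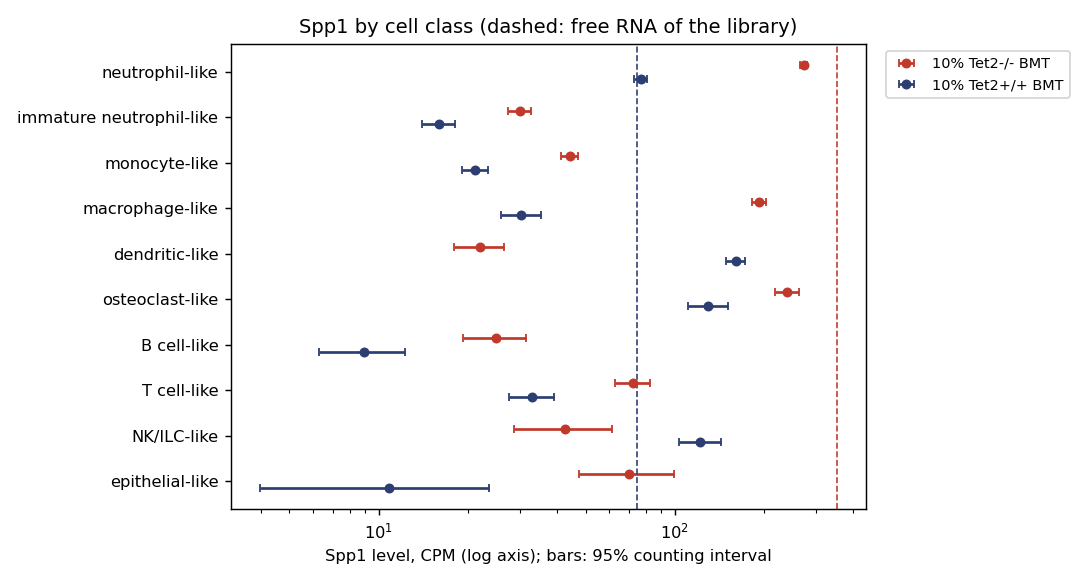
Points give the Spp1 level in CPM (log axis) in each class, red for 10% Tet2-/- BMT and blue for 10% Tet2+/+ BMT, with 95% counting intervals, and dashed lines the level in free RNA (354 and 74.6 CPM). Neutrophil-like cells stand at 273 against 76.8 CPM and dendritic-like cells at 21.9 against 161. Mast and basophil-like cells, with 0 and 2 UMIs, are not drawn.

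Among the receptor genes, Cd44 was highest in neutrophil-like cells of the named classes in both libraries. Its level there was 1314 CPM (1296 to 1331) in 10% Tet2-/- BMT and 1049 CPM (1035 to 1063) in 10% Tet2+/+ BMT, a ratio of 1.25 (1.23 to 1.28), and 94.1% and 91.4% of the cells had a UMI. The unnamed cluster led by Obp1a, an odorant-binding protein gene, was higher, at 1470.5 and 1333 CPM. Its best list was also that of neutrophils, with 9 markers, and it stayed unnamed because gland transcripts led it. The cluster led by Acod1, which held the Spp1 of the class, also had its highest Cd44, at 2234 and 1904 CPM, a ratio of 1.17. Within that cluster, cells with 5 or more Spp1 UMIs were at 2225 and 1909 CPM and cells with none at 2254 and 1915 CPM, so Cd44 was at about the same level with and without Spp1. Monocyte-like cells were at 450 and 441 CPM and immature neutrophil-like cells at 272 and 275 CPM. Macrophage-like cells were lowest of these, at 175 and 176 CPM. B cells of the cluster led by Cd79a, the lowest cluster, were at 54.7 and 62.8 CPM with a free RNA level of 551 and 413 CPM.

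The unnamed cluster led by Arg1 had Cd44 at 1290 CPM (1253 to 1328) in 10% Tet2-/- BMT and 650 CPM (600 to 702) in 10% Tet2+/+ BMT, 1.99-fold higher (1.83 to 2.16). In its Arg1, Spp1 and Inhba piece the levels were 1554 and 984 CPM, 1.58-fold higher (1.44 to 1.73). In the same cells the ratio of Spp1 was 0.909, a value in which 1 cell of each library weighs heavily.

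Itgav, the alpha v chain that both integrins share, was highest in osteoclast-like cells among the named classes, at 227 CPM (205 to 250) and 241 CPM (215 to 270), with a UMI in 97.4% and 100% of them. Of unnamed cells, the Arg1, Spp1 and Inhba cells were at 162 and 151 CPM and a cluster led by Hpgds (19 and 45 cells) at 101 and 413 CPM, on 4 and 47 UMIs. Within the cluster led by Arg1, cells with 5 or more Spp1 UMIs had Itgav at 202 and 176 CPM, and cells with none at 114 and 59.97 CPM. The cells with none include most of the 45 and 30 cells of this cluster that fell in the piece led by Ccl22. That piece (49 and 36 cells) had Itgav at 68.5 and 19.3 CPM, so the contrast is not within 1 population. Macrophage-like cells were at 64.6 and 56.1 CPM, T cell-like cells at 52.1 and 49.4 CPM and monocyte-like cells at 30.6 and 34.9 CPM. In neutrophil-like cells Itgav was low, at 11.3 CPM (9.76 to 13.02; 192 UMIs) and 18.0 CPM (16.3 to 19.9; 380 UMIs), a ratio of 0.627 (0.525 to 0.748). That did not pass the 1.5-fold with 10 CPM added, and both levels were below the free RNA levels of 42.2 and 34.1 CPM.

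Itgb5, the partner of alpha v in the integrin of that name, was a transcript of macrophage-like cells, at 299 CPM (287 to 311) and 286 CPM (272 to 301), a ratio of 1.04 (0.978 to 1.11). That class held 64.2% and 54.4% of all Itgb5 UMIs of kept cells with 6.87% and 5.02% of the cells. The small unnamed cluster led by Hpgds, whose best list was that of macrophages, was at 251 and 299 CPM on 10 and 34 UMIs. Monocyte-like cells were at 32.4 and 34.6 CPM and the cluster led by Arg1 at 44.3 and 46.7 CPM. Neutrophil-like cells were at 4.24 and 6.35 CPM, about the level of the cells led by Cd79a at 8.99 and 5.08 CPM.

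Itgb3, the partner of alpha v in the osteoclast integrin, was scarce, with 722 and 771 UMIs in all. Immature neutrophil-like cells held 37.0% and 37.2% of these, at 16.3 CPM (14.4 to 18.4) and 18.8 CPM (16.6 to 21.1). Within that class the cluster led by Ltf was at 26.4 and 25.4 CPM and that led by Elane at 5.86 and 4.85 CPM. Osteoclast-like cells were at 22.4 CPM (16.0 to 30.5; 40 UMIs) and 45.3 CPM (34.4 to 58.5; 58 UMIs), 2.02-fold lower (1.33 to 3.10) in 10% Tet2-/- BMT, but 13 and 25 of these UMIs were in 1 cell of each library. Mast and basophil-like cells were at 34.0 and 29.96 CPM, on only 2 and 8 UMIs in 10 and 37 cells. Macrophage-like and dendritic-like cells had between 8 and 17 UMIs in each library. Free RNA was at 13.4 and 11.7 CPM, above most classes.

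**Figure D5:**
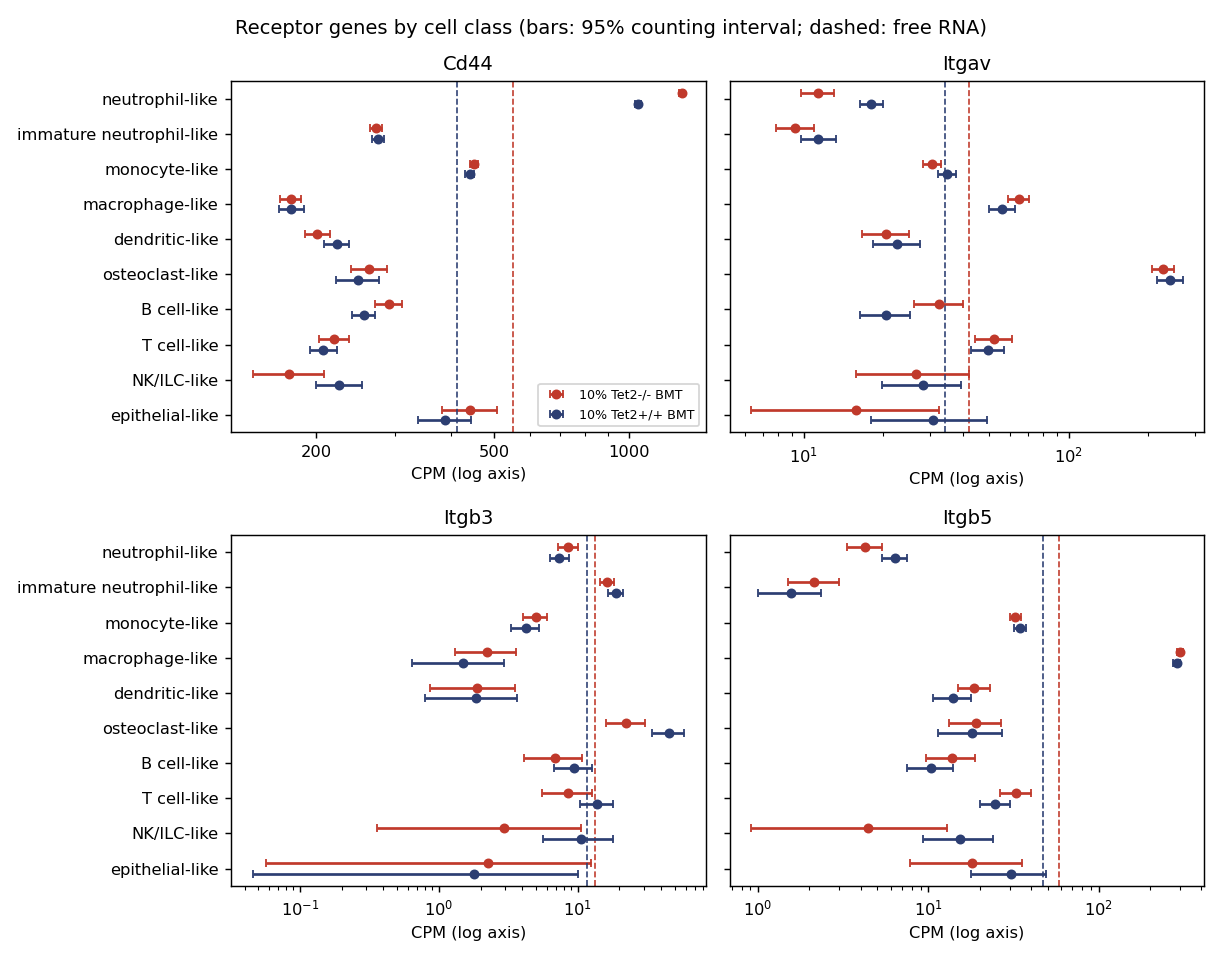
For Cd44, Itgav, Itgb3 and Itgb5, points give the level in CPM (log axis) in each class, red for 10% Tet2-/- BMT and blue for 10% Tet2+/+ BMT, with 95% counting intervals, and dashed lines the level in free RNA. Cd44 is highest in neutrophil-like cells, Itgav and Itgb3 in osteoclast-like cells and Itgb5 in macrophage-like cells, in both libraries and among the classes drawn. For Itgb3 in 10% Tet2-/- BMT the intervals of osteoclast-like (22.4 CPM) and immature neutrophil-like cells (16.3 CPM) overlap, so that order does not hold beyond counting error. Mast and basophil-like cells are not drawn.

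Over the 8 classes with at least 50 cells in each library, 2 of 32 receptor ratios passed 1.5-fold, both lower in 10% Tet2-/- BMT and both in NK/ILC-like cells, where Itgb3 had 2 and 13 UMIs and Itgb5 3 and 19. Of all genes at 10 CPM or more in either library, 3.52% were past 1.5-fold over the same 8 classes, and 6.31% were lower in NK/ILC-like cells. No receptor ratio passed in neutrophil-like, monocyte-like or macrophage-like cells. The 32 ratios had no minimum level, so their count and these shares are not like for like. With 10 CPM added, some could not have passed, such as Itgb3 at 4.97 and 4.21 CPM in monocyte-like cells. Itgb3 in macrophage-like cells, at 2.24 and 1.49 CPM, is another. With both chains looked for in the same cell, Itgav with Itgb5 was found in 34.9% (31.3 to 38.7) and 26.5% (22.9 to 30.2) of macrophage-like cells, at median depths of 10888 and 8248 UMIs, in 13.2% and 13.6% of monocyte-like cells and in 0.0775% and 0.289% of neutrophil-like cells. Itgav with Itgb3 was found in 7 of 39 and 10 of 26 osteoclast-like cells and in 1.67% and 0.683% of macrophage-like cells. A pair was missed wherever either chain was not captured, and free RNA and doublets can add pairs. In B cell-like cells, taken as a background, Itgav with Itgb5 was found in 1.70% and 1.58% and Itgav with Itgb3 in 0.567% and 0.702%, at median depths of 5606 and 5604.5 UMIs. The shares in neutrophil-like cells were no higher than these, at lower depth. The B cell-like cells include the cluster led by Ebf1 (121 and 183 cells), in which high doublet scores were common. Doublets may therefore raise this background, and pairs in the cluster led by Cd79a alone were not counted.

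Other genes of the pathway were taken from 8 lists chosen with earlier results of these data known, and measured where they reached 10 CPM in either library. Of all genes at that level, 1.46% were called higher and 2.48% lower in neutrophil-like cells, 1.4% and 1.17% in monocyte-like cells, and 0.42% and 0.525% in macrophage-like cells. The other integrin subunits that bind osteopontin (Itgb1, Itgb6, Itgb8, Itga4, Itga5, Itga8 and Itga9) had 3, 3 and 5 members measured in neutrophil-like, monocyte-like and macrophage-like cells, and none passed 1.5-fold. Itga4, which with Itgb1 forms the alpha 4 beta 1 integrin, was at 324 and 337 CPM in monocyte-like cells, 115 and 142 in neutrophil-like cells and 99.7 and 99.6 in macrophage-like cells. Itgb1 was at 176 in both libraries in monocyte-like cells and at 180 and 154 CPM in macrophage-like cells. The list medians on the log2 scale were -0.29, -0.06 and 0.16, against -0.12, 0.02 and 0.01 over all genes at 10 CPM.

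The proteases that cleave osteopontin had 3, 3 and 6 of 10 members measured. In neutrophil-like cells Mmp9, the gelatinase stored in neutrophil granules, was at 1648 and 1698 CPM, Ctsd at 628 and 702 and Ctsb at 199 and 180, and none passed. In monocyte-like cells Mmp9 was at 121 and 190 CPM, 1.57-fold lower (1.49 to 1.66) in 10% Tet2-/- BMT, which did not pass without the cells that had 5 or more Spp1 UMIs (log2 ratio -0.56 against -0.61). In macrophage-like cells Mmp12, the macrophage elastase, was at 37.9 and 21.0 CPM, 1.81-fold higher (1.45 to 2.26), while the lysosomal Ctsd (1920 and 1562 CPM) and Ctsb (1794 and 1777 CPM) did not pass.

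Of 12 other ligands of alpha v integrins, 3 were measured in each class. Thrombospondin 1 (Thbs1) was at 1221 and 786 CPM in neutrophil-like cells, 1.55-fold higher (1.52 to 1.59) in 10% Tet2-/- BMT, and at 743 and 439 CPM in monocyte-like cells, 1.69-fold higher (1.65 to 1.74). Fibronectin (Fn1) was at 1259 and 954 CPM in monocyte-like cells, which did not pass, and at 42.3 and 72.7 CPM in macrophage-like cells, 1.72-fold lower (1.48 to 2.00). Without the macrophage-like cells that had 5 or more Spp1 UMIs, the log2 ratio of Fn1 was -0.43 against -0.66 and did not pass. Tgfb1, whose latent form alpha v integrins activate, was at 94.9 and 72.2 CPM in neutrophil-like cells and did not pass in any of the 3 classes. The 4 relatives of Spp1 in the SIBLING family (Ibsp, Dmp1, Dspp and Mepe) reached 10 CPM in none of them.

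Among 12 genes that bind or act with CD44, 5, 6 and 6 were measured. Hmmr, a second hyaluronan receptor that is also a gene of dividing cells, was at 56.3 and 29.6 CPM in monocyte-like cells, 1.91-fold higher (1.72 to 2.11), in a class whose cycling cluster led by Stmn1 was 3.02% and 1.21% of kept cells, and no other member passed in any class. Serglycin (Srgn), a proteoglycan that CD44 binds, was at 9219 and 7132 CPM in neutrophil-like cells, and Ezr, which ties CD44 to the cytoskeleton, at 371 and 273 CPM. None of the 10, 10 and 11 measured genes of integrin activation and signalling passed. Talin (Tln1) was at 405 and 354 CPM in neutrophil-like cells, 652 and 600 in monocyte-like cells and 408 and 339 in macrophage-like cells.

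Genes reported together with Spp1 in macrophages had 8, 10 and 10 of 12 members measured. Fabp5, a fatty acid binding protein, was at 260 and 138 CPM in monocyte-like cells, 1.89-fold higher (1.80 to 1.98), and at 177 and 112 CPM in macrophage-like cells, 1.58-fold higher (1.43 to 1.74). Arg1 was at 13.8 and 5.40 CPM in monocyte-like cells, but 1 cell of 10% Tet2-/- BMT held 232 of its 286 UMIs. Without the richest cell of each library its log2 ratio was -0.15 against 0.63, so the direction turned, and it was -0.16 without the 38 and 18 cells that had 5 or more Spp1 UMIs. Those 3 ratios were the ones that passed, and Fabp5 in macrophage-like cells did not pass without the 17 and 7 cells that had 5 or more Spp1 UMIs (log2 ratio 0.57 against 0.61). Cd9 (1120 and 788 CPM) and Lgals3 (711 and 598 CPM) in neutrophil-like cells did not pass. Of 8 osteoclast genes 2 were measured in each of these classes and none passed, with Acp5 at 104 and 149 CPM and Nfatc1 at 40.9 and 49.8 CPM in macrophage-like cells.

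The genes whose pattern was most like each of the 5 were ranked over 17 profiles of classes and libraries with at least 50 cells, by Pearson correlation of log2 levels among 5090 genes, and the value is given for the first and the fifth of each. The profiles share libraries and cell depth, so the correlations are descriptions. For Cd44 the closest were Lilra6 (0.98), Ndel1, Card19, Klhl2 and Lmnb1 (0.95). For Itgb5 they were C3ar1 (0.98), Slc7a8, Ang, Ntpcr and Pla2g15 (0.96), and for Itgav Maf (0.96), Secisbp2l, Mdfic, Apoe and C1qb (0.89). For Itgb3 they were B3gnt2 (0.87), Krt83, Cdk11b, Tcp11l2 and Rac2 (0.82). No gene was as close to Spp1, where Ifrd1 (0.69), Prex1, Ppp1r12c, Tnfaip3 and Rab8b (0.62) came first. Over clusters instead of classes, a ranking added after the data were seen that includes the cluster led by Arg1, the genes closest to Spp1 were Srxn1 (0.83), Csf3, Lif, Pdpn and Eea1 (0.77).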

How the data were processed

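The deposited files hold raw counts of UMIs per gene and barcode, empty barcodes included, made with Cell Ranger 6.1.2 on mm10 per the submitters' processing notes, while the matrix header names Cell Ranger 4. How reads over overlapping genes were assigned is not stated in them.

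From these counts, cells were kept by the limits given in the report. The 5 genes were left out of the 2000 variable genes, and 30 principal components and 20 neighbours gave a graph that was clustered with Leiden at resolution 1 (leidenalg 0.10.2, igraph 0.11.9). Names came from 17 lists of markers, by the highest mean excess over other cells, and needed 3 markers that were 0.5 higher on the log2 scale (20 CPM added) and seen in 10% of the cells. No name was given where a different list had more genes among the 10 leading ones, to shallow clusters without markers, or where gland transcripts led. Scrublet (scanpy 1.11.5, 8% expected) marked 0 and 346 cells, so the caller did not work in 1 library, and doublets were left in.

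UMIs were summed per class and library and scaled to CPM. Printed folds carry no pseudocount, and calls use 10 CPM added and 1.5-fold. Genes were eligible at 50 CPM in either library and 100 UMIs in all, and genes of the lists were measured at 10 CPM. Level intervals are exact Poisson, fold intervals exact conditional binomial and shares Clopper-Pearson. UMIs come from cells that are not independent samples. The ratio and interval code was tested on simulated data. With 1 library per group, no test was made. The 5 genes, the gene lists and the rules were chosen with earlier results of these data known. The named genes are the 5, up to 4 members of each list with the highest level in the 3 main classes, and the 5 closest in pattern to each of the 5. Hmmr, Fabp5 and Arg1 were added after their values were seen because they passed 1.5-fold. Other settings tried were a minimum of 1000 UMIs, 5% mitochondrial UMIs, resolutions 0.5 and 2, 2 other scalings, per-cell means, thinning to 500 UMIs, subtraction of free RNA, 1 CPM added, removal of high doublet scores, unnamed clusters added and sex-typed cells. Leaving out the richest cell, or the cells with 5 or more Spp1 UMIs, was chosen after the data were seen.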

Additional observations from a re-analysis of the deposited data

Results flagged for a closer look

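Spp1 was past 1.5-fold higher in 10% Tet2-/- BMT in neutrophil-like, immature neutrophil-like, monocyte-like, macrophage-like, B cell-like and T cell-like cells. For B cell-like cells this held in the cluster led by Ebf1 and not in that led by Cd79a. Neither immature neutrophil-like cluster passed by itself, at 18.5 against 9.56 CPM (led by Ltf) and 42.0 against 29.3 CPM (led by Elane). In macrophage-like cells 1 cell of 10% Tet2-/- BMT held 1074 of the 1463 UMIs. Of the T cell-like cells with 5 or more Spp1 UMIs, 36.4% and 100% had a doublet score in the top 8%. Spp1 was past 1.5-fold in the opposite direction in 2 other classes of at least 50 cells in each library. In dendritic-like cells the log2 ratio, with 10 CPM added to both levels, was -2.42, and 2 of 261 cells held 80.8% of the UMIs of 10% Tet2+/+ BMT. In NK/ILC-like cells it was -1.32, with 74.8% of the UMIs of 10% Tet2+/+ BMT in 2 of 155 cells. The difference between these classes and the others was not tested, since each group is 1 library.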

How the results depend on the processing

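Log2 ratios here have 10 CPM added, and a change is given where a value moved beyond its 95% counting interval. Spp1 in neutrophil-like cells (1.71) stayed above 1.5-fold in 10% Tet2-/- BMT in all 16 other settings that gave a value. It was 1.54 at clustering resolution 2, 1.91 with TMM scaling, 1.60 with cells thinned to 500 UMIs, 1.82 with 1 CPM added, 1.60 with unnamed clusters added and 1.83 for Xist-carrying against Y-carrying cells. In monocyte-like cells (0.80) it was 1.17 at resolution 2, 0.34 when thinned and 1.03 with 1 CPM added, and stayed at 0.77 with free RNA subtracted by haemoglobin. In macrophage-like cells (2.33) it was 2.79 at up to 5% mitochondrial UMIs, 1.91 at resolution 0.5, 0.72 as a mean of per-cell CPM, 0.46 when thinned, 2.63 with 1 CPM added and 2.99 for Xist-carrying against Y-carrying cells. Receptor ratios past 1.5-fold, 2 in the report, were 0 at resolutions 0.5 and 2, 1 by per-cell mean, 8 when thinned, 5 with 1 CPM added, 4 with unnamed clusters added and 4 for the sex-typed cells.

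5 settings were chosen after seeing the data. With the 5 genes kept in the clustering, Spp1 was at 1.62 in neutrophil-like and 0.38 in macrophage-like cells. Without the richest cell, macrophage-like cells were at 0.80. With 5% free RNA subtracted, monocyte-like cells were at 0.42. In Y-carrying cells of both libraries the ratios were 3.22, -0.95 and 0.52 in neutrophil-like, monocyte-like and macrophage-like cells, the second on 3 UMIs in 27 cells. Arg1 in monocyte-like cells (0.63) was at -0.15 without its richest cell and at -0.16 without cells with 5 or more Spp1 UMIs. The cause of these changes was not tested.

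Neutrophil-like cells held 23.5% of the Spp1 UMIs in 10% Tet2-/- BMT, and 24.4% at resolution 2, 51.1% when thinned, 24.1% without the top 8% of doublet scores and 25.9% with unnamed clusters added. In 10% Tet2+/+ BMT they held 25.5%, and 27.4% at up to 5% mitochondrial UMIs, 28.5%, 51.4%, 29.8% and 32.3% in the same order. The cluster led by Arg1 held 55.0% in 10% Tet2-/- BMT, and 55.8% at up to 5% mitochondrial UMIs, 35.6% when thinned, 55.9% without high doublet scores and 60.4% with the 5 genes clustered on. In 10% Tet2+/+ BMT it held 36.1%, and 20.6% when thinned and 32% without high doublet scores. Among single receptor ratios in the 3 main classes, Cd44 in neutrophil-like cells ranged from 0.03 to 0.95 and passed 1.5-fold in 2 settings, and Itgav there ranged from -0.63 to -0.25 and passed in 1. Each passing in 1 setting, Cd44 in macrophage-like cells ranged from -0.62 to 0.10, Itgav there from -0.48 to 1.34, and in monocyte-like cells Itgb3 from -0.33 to 0.74 and Itgb5 from -0.22 to 0.97. The other 6 passed in none. Free RNA subtraction scaled by haemoglobin left levels below 0 in neutrophil-like and macrophage-like cells for Spp1 and gave no value. No paired analysis was possible because each group is 1 library. Depth limits Itgb3, which had 722 and 771 UMIs in all kept cells.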
